A study of Danio rerio with 416 samples.

Results

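The genes described here are 6 transcripts of the zebrafish germ plasm and germ line, NANOS3, DND1, DAZL, DDX4, TDRD7A and CA15B, with symbols in capitals as the deposited tables write them. They were taken by symbol, and all 6 had a row among the 25208 rows of the full-length table and in the 5-prime table. The cells came from embryos at 50% epiboly, an early gastrula stage, and each of the 416 samples is 1 cell. Of the 328 cells with full-length libraries, the MZoep cells (93, 82, 74 and 27 by library batch, p1 to p4) carry the tz57 allele and lack maternal and zygotic one-eyed pinhead, the co-receptor for Nodal signals. A further 88 MZoep cells of the same allele and stage were read from the 5-prime end, each molecule tagged with a unique molecular identifier (UMI). The other 52 full-length cells are wild type, of the TLAB strain. Embryos of both genotypes came from incrosses, were deyolked by hand, and single cells were picked by hand. No embryo, clutch or culture is named, so each genotype is 1 sample, cells are not replicates, and no test, p-value or standard error was made. Strain and genotype cannot be told apart.

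Germ plasm is maternal cytoplasm, rich in particular RNAs and proteins, that a few cells of the cleaving zebrafish embryo inherit and that makes them primordial germ cells. The same transcripts are also laid down outside the germ plasm, and during early development they are cleared from somatic cells while the germ cells keep them. Nanos3 is a zinc finger RNA-binding protein needed for germ cell survival. Dnd1 binds transcripts and protects them from microRNA-directed decay, and Dazl is an RNA-binding protein that supports translation of germ cell transcripts. Ddx4, also called Vasa, is an RNA helicase of germ granules, Tdrd7a is a Tudor protein that shapes those granules, and CA15B encodes a carbonic anhydrase.

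Levels in full-length cells are in FPKM, fragments per unit of transcript length and of library size. Cells in which fewer than 1500 genes reached 1 FPKM were left out. Of the full-length cells 292 remained, and by batch these were 79, 80, 61 and 25 MZoep cells and 3, 14, 18 and 12 wild-type cells, 47 in all for wild type. They had a median of 7346 genes in MZoep and 6964 genes in wild type. Relative depth, read from the step that 1 read makes in low FPKM values, had medians in p2 of 0.758 in MZoep and 0.574 in wild-type cells. In p3 it was 1.23 in both genotypes, in p4 it was 1.23 in MZoep and 1.15 in wild type, and in p1 it was 1.23 in MZoep and 1.41 in wild type. The transcript of one-eyed pinhead, TDGF1, was at 1 FPKM or more in 94.3% of MZoep and 93.6% of wild-type cells, with medians of 37.69 FPKM in MZoep and 34 FPKM in wild type, so its level does not check the labels. The 5-prime set kept 86 cells, each with 500 genes or more and with a median of 47195 UMIs (29246 to 73231).

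Transcripts of NANOS3 and DND1 were gathered in 2 of the kept full-length MZoep cells. These cells, S21 and S81 of batch p2, held 3201 and 2925 FPKM of NANOS3, while the third highest MZoep cell held 71.45 FPKM. They are called the NANOS3-high cells here because that single value picked them. For NANOS3 they carried 80.5% of the FPKM summed over all MZoep cells. The same cells carried 75.1% of the sum of DND1, with 858.6 FPKM in S21 and 973.6 FPKM in S81 against 33.66 FPKM in the next cell. Of 14998 genes that 5% or more of MZoep cells held at 1 FPKM, 0.873% had at least 50% of their sum in their 2 highest cells. Among the 6 genes, NANOS3 and DND1 did, ranking 2 and 3 of all 14998.

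The genes DDX4, TDRD7A and CA15B peaked in the same cells, but most of the sum of each lay in other MZoep cells. The helicase gene DDX4 was at 1012 FPKM in S21 and 742.2 FPKM in S81, and the next MZoep cell had 146.9 FPKM. The Tudor gene TDRD7A was at 462.9 and 249.1 FPKM in S21 and S81, but 1 cell of p1, S12, came close with 232.4 FPKM. For CA15B the values were 457.2 and 516.6 FPKM, and the next cell had 100.4 FPKM. The 2 highest cells held 26.3% of the sum of DDX4, 31.8% of TDRD7A and 26.2% of CA15B, against a median of 9.78% over all genes measured in MZoep. With a stricter limit on genes per cell than 1500, the share was 37.3% for TDRD7A, 27.6% for DDX4 and 26.9% for CA15B. Kept cells with few genes thus held part of the TDRD7A sum. The change in the TDRD7A share is the one made by leaving out S12 and a cell of p2, S52, with 101.5 FPKM. Both therefore had fewer genes than the stricter limit. The RNA-binding protein gene DAZL did not share the pattern, since its 2 highest cells held 10.1% of its sum. It was at 14.34 FPKM in S21 and 62.05 FPKM in S81, ranks 34 and 2, and its highest cell was in p1 with 75.85 FPKM.

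**Figure D1:**
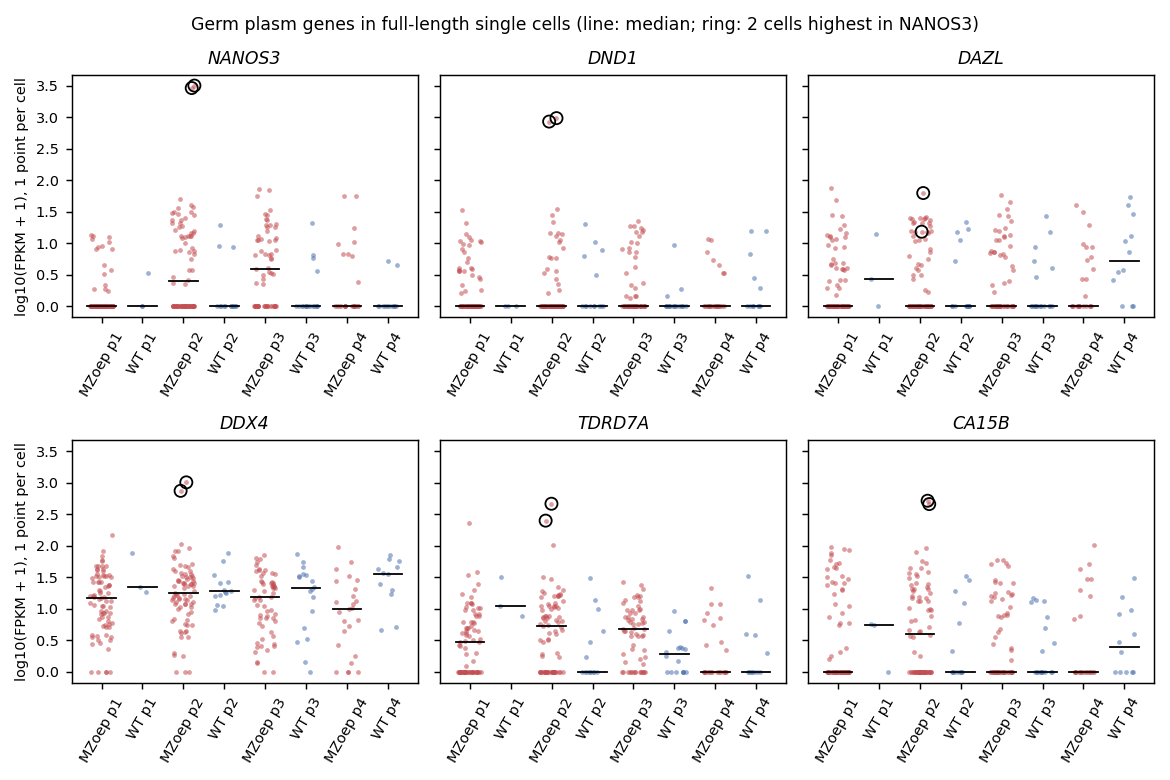
Level of the 6 genes in each kept full-length cell, as log10(FPKM + 1), by genotype and library batch p1 to p4, with 1 point per cell and a line at the median. The 2 ringed cells of MZoep p2, chosen by NANOS3, are the 2 highest MZoep cells for NANOS3, DND1, DDX4, TDRD7A and CA15B but not for DAZL.

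The 5-prime libraries, made from other MZoep cells, held 2 such cells again. Cells S24 and S53 of this set had 580 and 512 UMIs of NANOS3 (exact Poisson 95% intervals 534 to 629 and 469 to 558, counting error only), and the next cell had 19. In CPM, a cell's UMIs of the gene scaled to an equal total for every cell, DND1 was at 6465 in S24 and 3654 in S53, and the next cell had 271.2. For DDX4 they had 6519 and 3169 CPM (next cell 685.7), and for TDRD7A 3861 and 2522 CPM (next cell 369.3). The counts of CA15B were 298 and 32 UMIs (next cell 12), so S24 alone held 65.2% of all its UMIs. For DAZL, S24 had 47 UMIs and S53 had 5, which 1 other cell also had. Between them the 2 cells held 85.8% of all NANOS3 UMIs, 87.9% of DND1, 72.2% of CA15B, 69.2% of TDRD7A and 44.4% of DDX4. For DAZL the share was 41.9%, nearly all from S24.

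Among 6211 genes with at least 100 UMIs over the 5-prime cells, 0.0966% had at least 50% of their UMIs in their 2 highest cells. These were 6 genes, DND1, NANOS3, CA15B and TDRD7A from the list and 2 others, ACTL7A (67.2%), an actin-like gene, and RGS14A (55.8%), a regulator of G protein signalling. The median over the 6211 genes was 9.13%. The remaining list genes, DDX4 and DAZL, ranked 7 and 8.

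**Figure D2:**
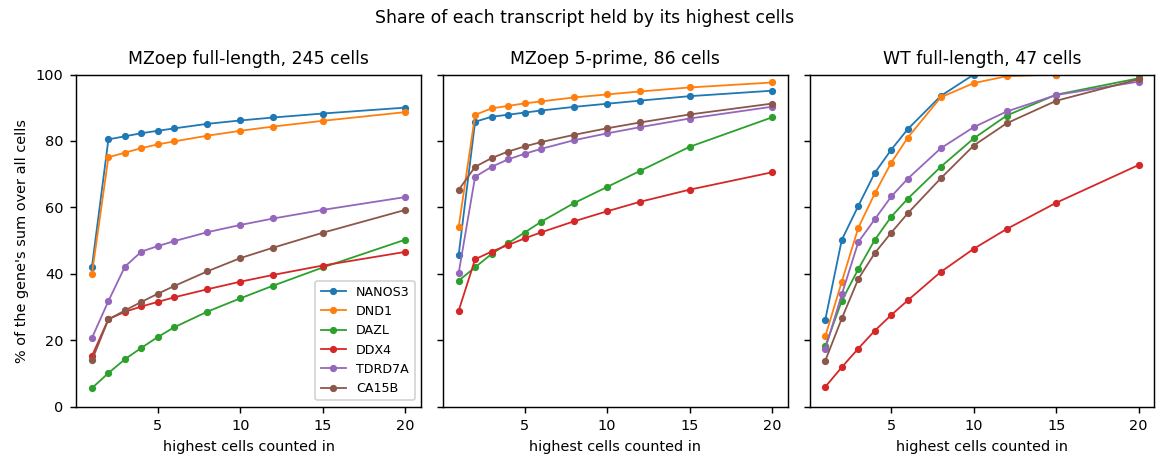
Percentage of each gene's sum over all kept cells (vertical axis) held by its highest cells, counted in from 1 to 20 (horizontal axis), in MZoep full-length, MZoep 5-prime and wild-type full-length cells. The curves of NANOS3 and DND1 reach 80.5% and 75.1% at 2 full-length MZoep cells and 85.8% and 87.9% at 2 of the 5-prime cells. The wild-type panel rests on 47 cells.

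The high cells of both kinds of library shared a small set of genes. In the full-length set 14 genes, 0.0933% of the 14998, were higher in both NANOS3-high cells than in every other MZoep cell. In the 5-prime set this held for 22 genes by CPM, 0.354% of the 6211. Among the other 5 list genes, DND1, DDX4, TDRD7A and CA15B were so in both sets and DAZL in neither. Over the 6204 genes measured in both sets there were 12 and 22 such genes, and 8 were shared, which is 66.7% of the full-length genes and 36.4% of the 5-prime genes. The 8 were the 5 list genes NANOS3, DND1, DDX4, TDRD7A and CA15B together with ACTL7A, GRA and RGS14A. This ranking was chosen after values were seen, and NANOS3 is in it by construction.

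The germ cell transcript GRA, known as granulito, was at 326.8 and 255.5 FPKM in S21 and S81 (next MZoep cell 102.3) and at 75 and 38 UMIs in S24 and S53 (next cell 9). Levels of RGS14A were 92.48 and 126.3 FPKM (next cell 38.72) and 63 and 23 UMIs (next cell 7). The actin-like gene ACTL7A was at 1004 and 248.1 FPKM (next cell 66.18) and at 9374 and 4349 CPM (next cell 401.9). In both 5-prime cells it exceeded every list gene but NANOS3 in CPM. It is not on the germ plasm list and is named for its rank.

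Fewer of the other germ plasm and germ granule genes stood high in these cells. A list of 27 such genes was used, of which 26 matched a row, all measured. Summed over the list, which includes GRA, RGS14A and H1M, both cells were above every other MZoep cell. The sums were 1664 and 1323 FPKM in S21 and S81, against at most 1313 FPKM. In S24 and S53 they were 7973 and 5772 CPM, against at most 4776 CPM. Both full-length NANOS3-high cells were above the 90th percentile of the other MZoep cells for 5 of the 26, namely BUC, PLD6, GRA, RGS14A and H1M, against 3.46% of all genes. For PLD6 that percentile was 0 FPKM, so any value above 0 passed. In the 5-prime cells both were above it for 5 of 15 measured, namely BUC, ASZ1, GRA, RGS14A and H1M, against 3.82% of all genes. BUC, the organiser of germ plasm, had 52.61 and 99.88 FPKM against a median of 1.93 FPKM in the other cells, but 1 of those reached 134.03 FPKM. H1M, the linker histone gene of the oocyte and germ line, had 382.8 and 402.8 FPKM against a median of 148.7 FPKM and a highest value of 457.8 FPKM.

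Genes of the Tudor, Piwi and piRNA pathway gave mixed values there. TDRD6, a Tudor gene of the germ plasm, was at 0.30 and 1.30 FPKM in S21 and S81. It had 4 and 1 UMIs in S24 and S53 (ranks 5 and 15 by CPM). PIWIL1, which encodes a Piwi protein, was at 13.60 and 0 FPKM and had 0 and 1 UMIs. ASZ1 was at 103.6 and 19.74 FPKM (ranks 3 and 57) and had 7 and 12 UMIs (ranks 9 and 3 by CPM). Of this pathway only PLD6 was above the 90th percentile in both full-length cells, and only ASZ1 in both 5-prime cells. PLD6 was at 8.04 and 11.71 FPKM (ranks 8 and 5) against a percentile of 0 FPKM, and another cell reached 52.95 FPKM. It had 2 and 0 UMIs in S24 and S53. Transcripts of CXCR4B, the receptor that guides germ cell migration, were at 245.4 and 159.1 FPKM against a median of 202.9 FPKM in the other cells, so the full-length high cells lay on both sides of it. In the 5-prime cells both were above the median of the others, at 700.4 CPM in S24 and 1002 CPM in S53 against 532.1 CPM, with ranks 29 and 6. The repression partners PUM2, CNOT1 and YTHDF2 were never above the 90th percentile in both cells of either set.

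**Figure D3:**
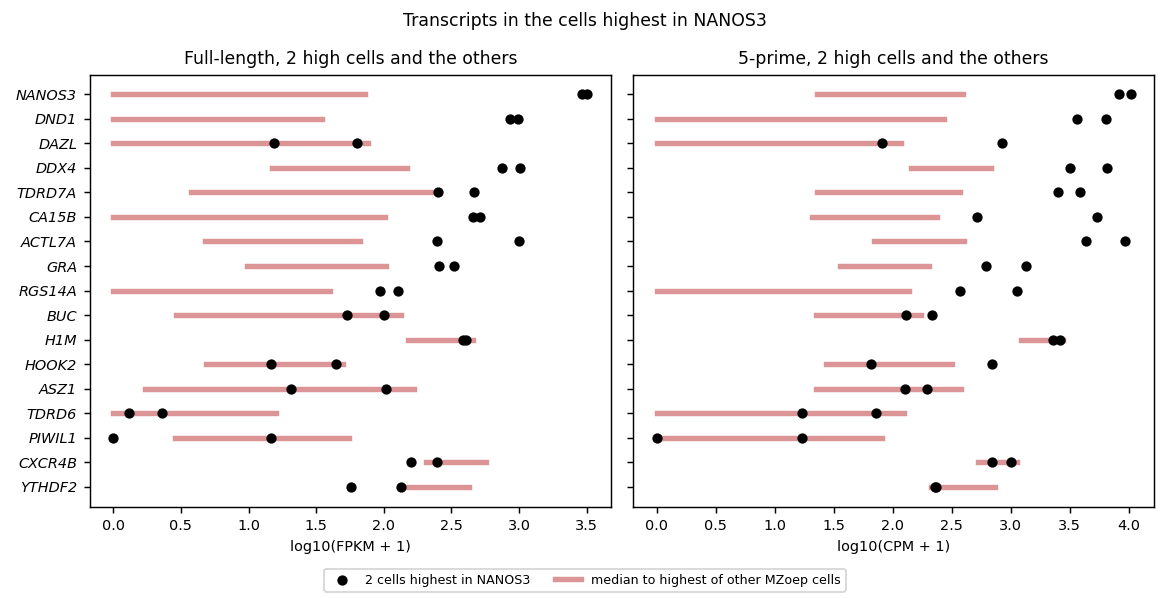
Levels of list genes and further germ plasm genes in the 2 NANOS3-high cells (black points) and in the other MZoep cells (red bar, from their median to their highest cell), for full-length libraries as log10(FPKM + 1) and for 5-prime libraries as log10(CPM + 1). The points lie right of the bar in both panels for NANOS3, DND1, DDX4, TDRD7A, CA15B, ACTL7A, GRA and RGS14A, and within the range of other cells for H1M and CXCR4B.

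Markers of other cell types, taken as sums, did not stand high in the NANOS3-high cells. The summed FPKM of 13 enveloping layer genes was 164.9 and 55.76 in S21 and S81, with 6 and 8 of the 13 at 0. In the other MZoep cells it had a median of 178.3 (3.73 to 10824). For 8 yolk syncytial layer genes the sum was 2.60 and 14.06 FPKM, with 7 and 6 of them at 0, and a median of 2.33 (0 to 185.9) in the others. The sum of 8 apoptotic-like genes was 430.9 and 375.2 FPKM against a median of 318.5 (31.66 to 2704). In S24 and S53 the enveloping layer sum was 880 and 824.5 CPM against a median of 1364 CPM in the other 5-prime cells. The yolk syncytial layer sum was 0 and 32.33 CPM against 25.19, and the apoptotic-like sum 826.1 and 630.5 CPM against 827.2. None of these genes that counted as measured was above the 90th percentile in both cells of either set. In the 5-prime set that was 8 enveloping layer, 0 yolk syncytial layer and 3 apoptotic-like genes. The apoptotic-like gene CASP8 was highest of all 5-prime cells in S24, with 6 UMIs, and had 0 in S53. The 10 housekeeping genes summed to 2644 and 1950 FPKM in S21 and S81, low in the range of the others (median 3608, 1699 to 6899). Gene numbers were high, at 8289 and 8331 in S21 and S81 (ranks 24 and 21 among kept MZoep cells) and 7839 and 8156 in S24 and S53 (ranks 5 and 1 of 86). No doublet caller was run, and the part of gene number or library size in these results was not tested.

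Outside the 2 NANOS3-high cells, the list genes were still found in many cells, with DDX4 the most widespread. Of the other full-length MZoep cells, 91.8% had DDX4 at 1 FPKM or more (95% exact interval 87.6 to 94.9, counting error over cells only), with a median of 13.92 and a highest value of 146.9 FPKM. The share was 58.8% for TDRD7A (52.4 to 65.1), 45.3% for CA15B (38.9 to 51.8), 41.2% for NANOS3 and for DAZL (34.9 to 47.6 each) and 28.4% for DND1 (22.8 to 34.5). The median cell had 2.73 FPKM of TDRD7A and was listed at 0 for the other 4 genes. Without the 2 cells, the 2 highest remaining cells held 9.52% of the sum of NANOS3, 11.02% of DND1 and 21.8% of TDRD7A. The cells left out were the highest for these 3 genes. Their shares are therefore not comparable with the median of 9.78% over all genes, which counts every kept MZoep cell. For TDRD7A the 2 highest remaining cells were S12 of p1 (232.4 FPKM) and S52 of p2 (101.5 FPKM), and the next had 37.35 FPKM. Both S12 and S52 had fewer genes than the stricter limit named above. The part of gene number in these TDRD7A values was not tested.

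In the 84 other 5-prime cells DDX4 was again the most often detected. A UMI of DDX4 was found in 97.6% of them, of NANOS3 in 63.1%, of TDRD7A in 60.7%, of CA15B in 53.6%, of DND1 in 38.1% and of DAZL in 36.9%. The levels without S24 and S53 were 177.8 CPM for DDX4 (Poisson interval 164.9 to 191.5), 45.9 CPM for NANOS3 (39.5 to 53.1), 20.5 CPM for DND1 (16.3 to 25.5) and 18.3 CPM for DAZL (14.29 to 22.9989). With all 86 cells NANOS3 was at 313.5 CPM and DDX4 at 310.3 CPM.

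Since NANOS3 chose the cells, its share of the list's UMIs there is set by that choice and is left aside. Among the UMIs of the other 5 genes, DDX4 made up 28.3% in S24 (exact interval 25.8 to 30.8), 31.9% in S53 (28.2 to 35.7) and 61.2% in the 84 other cells (58.3 to 64.0029). DND1 made up 28.1% in S24 (25.6 to 30.6), 36.7% in S53 (32.9 to 40.7) and 7.07% in the other cells (5.65 to 8.71). In both NANOS3-high cells the mixture thus held less DDX4 and more DND1 than the pooled other cells. CA15B lay on both sides of the other cells, at 23.2% in S24, 5.20% in S53 and 11.1% in the others. The intervals cover counting error only, over the UMIs of 1 cell or of the pooled other cells.

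**Figure D4:**
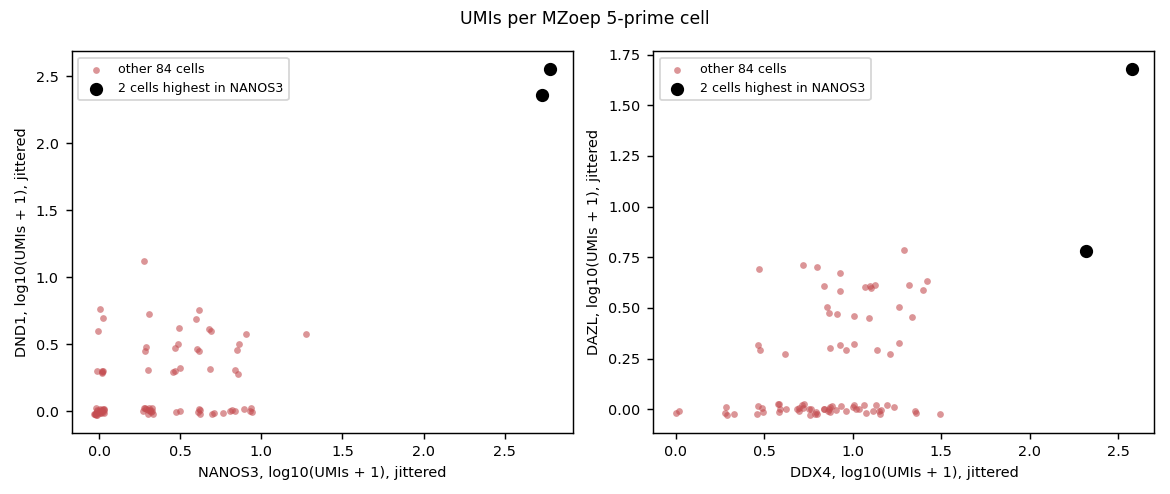
UMIs per 5-prime MZoep cell as log10(UMIs + 1), slightly jittered, for DND1 against NANOS3 and for DAZL against DDX4. The 2 black points, with 580 and 512 UMIs of NANOS3, stand apart on NANOS3, DND1 and DDX4, while for DAZL 1 of them, with 5 UMIs, lies among the other 84 cells.

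No wild-type cell reached the levels of the NANOS3-high cells for NANOS3, DND1, DDX4, TDRD7A or CA15B. The highest wild-type value was 20.43 FPKM for NANOS3, 19.38 for DND1, 76.55 for DDX4, 32.55 for TDRD7A and 32.50 for CA15B. For DAZL it was 53.35 FPKM, between the values of S81 and S21. In this smaller set the 2 highest wild-type cells held 50.2% of the sum of NANOS3, 37.6% of DND1 and 11.8% of DDX4. Only NANOS3 of the 6 genes passed 50%, as did 28.9% of the 14504 genes measured in wild type, so a share of this size was common there. The count of 0 NANOS3-high cells among 47 wild-type cells allows a share of up to 6.38% by the limit of 3 counts, and up to 7.55% by the exact interval. The shares in MZoep were 2 of the full-length cells (0.816%, exact interval 0.099 to 2.92) and 2 of 86 5-prime cells (2.33%, 0.283 to 8.15). A difference between the genotypes in the share of such cells was therefore not detectable with this number of wild-type cells.

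Mean levels were compared as log2 of the batch-standardised mean of FPKM plus 1, which understates differences of low genes. Of the 6 genes, 3 were at least 2-fold higher in MZoep and none at least 2-fold lower, against 5.15% and 2.54% of 15831 measured genes. Their median log2 ratio was 1.11, against 0.12 for all genes. Without the 2 NANOS3-high cells, only NANOS3 stayed at least 2-fold higher (against 5.04% of all genes, and 2.53% lower), and the median was 0.31. These cells were the highest in MZoep for every list gene but DAZL, and no wild-type cell was left out. Leaving out the 2 highest cells of each gene in each genotype kept 2 genes at least 2-fold higher, NANOS3 (2.22) and CA15B (1.26). The median was then 0.70, and the share over all genes was not computed for this setting.

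NANOS3 had a mean of 32.5 FPKM in MZoep and 1.70 FPKM in wild type, a log2 ratio of 3.63, and without the 2 cells the MZoep mean was 7.80 FPKM and the ratio 1.70. Taken batch by batch without them, the ratio was 0.34 in p1, 1.42 in p2, 1.87 in p3 and 2.20 in p4. Over all kept cells NANOS3 ran from 0 to 3201 FPKM with a median of 0 in MZoep and from 0 to 20.43 FPKM with a median of 0 in wild type. A larger share of MZoep than of wild-type cells had it in p2, p3 and p4. The intervals given with these shares cover counting error over cells only. They do not compare the genotypes, as each is 1 sample. In p3 median relative depth was 1.23 in both genotypes, while the median number of genes was 7511 in MZoep and 6727 in wild type. There NANOS3 was at 1 FPKM or more in 62.3% of MZoep cells (48.96 to 74.4, n = 61) and in 22.2% of wild-type cells (6.41 to 47.6, n = 18). In p2 the shares were 52.5% of MZoep (41.02 to 63.8) and 21.4% of wild-type cells (4.66 to 50.8). In p4 they were 36% of MZoep (17.97 to 57.5) and 16.7% of wild-type cells (2.09 to 48.4). In p1 they were 16.5% of MZoep cells (9.06 to 26.5) and 1 of 3 wild-type cells. The median number of genes in MZoep was 7011 in p1, 7528 in p2, 7511 in p3 and 6793 in p4. In wild type it was 6972 in p1, 7011.5 in p2, 6727 in p3 and 7161.5 in p4. The part of gene number or depth in these shares was not tested.

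For DND1 the mean was 9.90 FPKM in MZoep and 1.91 FPKM in wild type (log2 ratio 1.91), and without the 2 cells it was 2.51 FPKM in MZoep (0.27). The ratios within batches then differed in sign, at 1.75, -0.25, 1.42 and -0.69 in p1 to p4. In p1 all 3 wild-type cells were at 0, so the size of that ratio depends on the FPKM of 1 added to each mean. In p3 only 1 of 18 wild-type cells had DND1 at 1 FPKM or more. The median cell was at 0 in both genotypes. DND1 was detected in 28.98% of MZoep cells (23.4 to 35.1) and 21.3% of wild-type cells (10.7 to 35.7), with intervals for counting error only.

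The mean of CA15B was 14.5 FPKM in MZoep and 5.02 FPKM in wild type (log2 ratio 1.37). Without the 2 cells the ratio was 0.96, and by batch 1.76, 0.66, 1.14 and 0.98 in p1 to p4. Leaving out the 2 highest cells of CA15B in each genotype gave a ratio of 1.26 over the batches. CA15B was detected in 45.7% of MZoep (39.4 to 52.2) and 48.9% of wild-type cells (34.1 to 63.9), with intervals for counting error only. The highest value of CA15B was 100.4 FPKM in MZoep outside the 2 cells and 32.50 FPKM in wild type. A highest value tends to rise with the number of cells, and MZoep had more cells. These highest values therefore do not compare the genotypes. With the mean of log2 values over all kept cells, the ratio of CA15B was 0.45. For TDRD7A the mean was 8.36 FPKM in MZoep and 4.16 FPKM in wild type (log2 ratio 0.86). Without the 2 cells its ratio was 0.34, and by batch -1.02, 0.69, 1.24 and -0.49 in p1 to p4, so the sign differed between batches.

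DDX4 and DAZL did not differ 2-fold in mean. The mean of DDX4 was 26.4 FPKM in MZoep and 27.4 FPKM in wild type (-0.05). Without the 2 cells its MZoep mean was 19.4 FPKM and the ratio -0.47. Its within-batch ratios were then -0.89, -0.12, -0.31 and -1.08 in p1 to p4, with 3 wild-type cells in p1. With all kept cells the p2 ratio was 0.81. The 2 cells were the highest for DDX4 in MZoep, and no wild-type cell was left out. Leaving out the 2 highest cells of DDX4 in each genotype gave a ratio of -0.34 over the batches. The median cell had 14.08 FPKM in MZoep (0 to 1012) and 21.43 FPKM in wild type (0 to 76.55). In p4 the medians were 8.93 FPKM in MZoep and 35.1 FPKM in wild type, and detection was 76% in MZoep (54.9 to 90.6) and 100% in wild type (73.5 to 100). The mean of DAZL was 5.85 FPKM in MZoep and 5.97 FPKM in wild type (-0.03). By batch, and leaving out the 2 NANOS3-high cells, its ratios were -0.08, 0.19, 0.78 and -1.19 in p1 to p4, so the sign differed between batches. In p4 it was detected in 44% of MZoep (24.4 to 65.1) and 75% of wild-type cells (42.8 to 94.5).

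**Figure D5:**
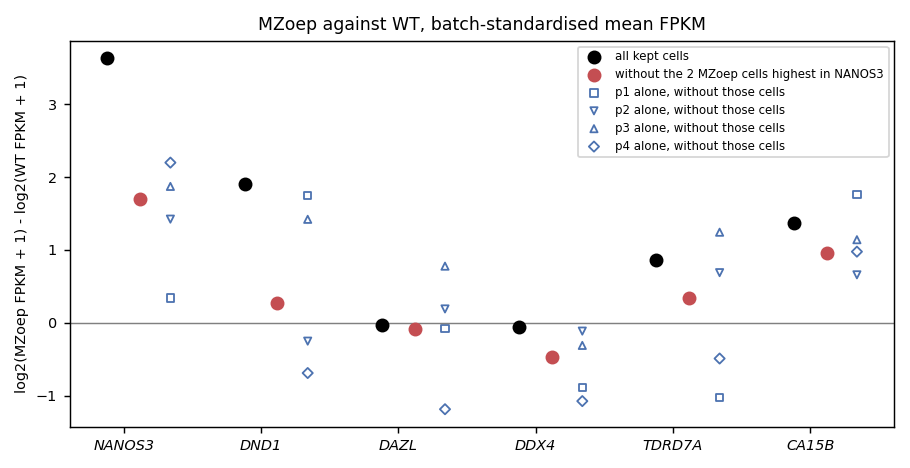
Log2 ratio of MZoep over wild type for each gene, from batch-standardised mean FPKM with 1 added, with all kept cells (black), without the 2 NANOS3-high MZoep cells (red) and within p1 to p4 without those cells (blue symbols). Without the 2 cells NANOS3 is at 1.70 and DND1 at 0.27, against 3.63 and 1.91 with all kept cells. DDX4 lies below 0 in each batch without them, while its p2 ratio with all kept cells, not drawn, is 0.81.

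Without the 2 cells the order of the levels per transcript length in MZoep was DDX4 (19.4 FPKM), CA15B (10.7), NANOS3 (7.80), DAZL (5.59), TDRD7A (5.53) and DND1 (2.51). In wild type it was DDX4 (27.4 FPKM), DAZL (5.97), CA15B (5.02), TDRD7A (4.16), DND1 (1.91) and NANOS3 (1.70). DDX4 was the highest in both genotypes. NANOS3 was the third in MZoep and the lowest in wild type, next to DND1. No spread over samples can be set beside these orders, as each genotype is 1 sample.

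The wider germ plasm list, read across genotypes, had 2 of 26 measured genes at least 2-fold higher in MZoep and none at least 2-fold lower, with a median log2 ratio of 0.24. Over all measured genes 5.15% were higher, 2.54% were lower and the median was 0.12, so the list's count lay near that background. The 2 were TDRKH, a Tudor gene of the piRNA pathway (3.43 FPKM in MZoep and 0.44 in wild type, ratio 1.62), and TDRD5, another Tudor gene (7.29 FPKM in MZoep and 2.61 in wild type, ratio 1.2). BUC was at 10.1 FPKM in MZoep and 4.93 FPKM in wild type (0.91). Without the NANOS3-high cells GRA and RGS14A had ratios of 0 and 0.15. Maternal oocyte transcripts gave 4 of 12 at least 2-fold higher and a median of 0.55, with or without the 2 cells, beside 5.15% of all genes and their median of 0.12. Enveloping layer markers gave 9 of 13 at least 2-fold higher and 1, ANXA1A, at least 2-fold lower, beside 5.15% and 2.54% of all genes. Whether cell make-up bears on the ratio of NANOS3 was not tested.

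Across all kept full-length MZoep cells, transcript patterns were only weakly alike. Among 19893 genes the Pearson coefficient of log2(FPKM + 1) with NANOS3 was highest for DND1 (0.35), ACTL7A (0.34), SI:DKEY-182I3.8 (0.34), DTX3L (0.33) and zgc:56231 (0.32). The coefficient with DND1 was 0.17 without the 2 NANOS3-high cells, -0.06 in 47 wild-type cells and 0.39 in 86 5-prime cells, S24 and S53 included. In the same 86 cells the coefficient with NANOS3 was 0.25 for ACTL7A, 0.07 for SI:DKEY-182I3.8 and for DTX3L, and -0.11 for zgc:56231. For DDX4 it was highest with CA15B (0.31), ACTL7A (0.30), WNT8A (0.29), NRADD (0.28) and GRA (0.28). TDRD7A was led by ACTL7A (0.34) and then BRCA2, SI:CH73-334D15.4, PRKAA1 and STIP1. The genes most like DND1 were CABZ01019905.1 (0.36), SETD4, NANOS3, zgc:174688 and SELP. Those most like CA15B were DDX4 (0.31), CR450729.1, DCUN1D1, TRIM35-20 and SNRKA. DAZL was led by EOMESA (0.29), CABZ01111496.1, WNT11, ATP1B3A and CCNT2A, none of them a list gene. When the 2 NANOS3-high cells were left out, the coefficient was 0.21 for NANOS3 with ACTL7A, 0.03 for DND1 with SELP and 0.26 for DAZL with EOMESA. These cells share batches and depth, and coefficients of this size are given as description.

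Some rows can hold reads of neighbouring genes. In RefSeq annotation of assembly GRCz12tu, which is not the build of the files and was used for neighbours only, DAZL lies over pals2b, and DND1 and DDX4 each overlap 1 long noncoding RNA. Libraries of this kind are not stated to keep strand, so values of these 3 genes are uncertain to that extent. The row NANOS1, a related gene, was detected in 11 MZoep cells and in none of the 47 wild-type cells, and was at 0 in S21, S81, S24 and S53.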

How the data were processed

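Single cells of 50% epiboly embryos were measured in full-length libraries (328 cells, 52 of them wild type) and 5-prime libraries (88 MZoep cells). The FPKM values were deposited by the authors per gene and cell; Bowtie2, RSEM and build GRCz10 are named in the submitters' processing notes, with no version or role, and the gene annotation and read filters are not stated there or in the labels. Counts of UMIs per gene and cell were also deposited; no label says how UMIs were collapsed. In the UMI counts the 328 columns for full-length cells are at 0 throughout and were left aside. No 2 kept columns were identical.

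Genotype and library batch came from the labels. Kept cells had at least 1500 genes at 1 FPKM, or 500 genes with a UMI. Mean FPKM per genotype was averaged over batches with weights of 7.85%, 32.4%, 37.8% and 22.0% (p1 to p4), and log2 ratios used a pseudocount of 1 FPKM. A gene counted as measured if it reached 1 FPKM in 5% of the cells of either genotype, and in 5-prime data had at least 100 UMIs. Shares have exact binomial and counts exact Poisson 95% intervals, which cover counting error only. FPKM carries no counts, so relative depth alone was read. The naming rule took the 6 genes, the germ plasm list and the 5 genes most correlated with each. The values of 1 gene of that list are not reported here. The genes and lists were chosen with earlier results of these data known. Steps were tested on simulated data. Python 3.11.15, numpy 2.4.6, pandas 2.3.3 and scipy 1.17.1 were used. Overlaps between genes were read from RefSeq (GRCz12tu); no coordinate or sequence is printed.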

Additional observations from a re-analysis of the deposited data

Results flagged for a closer look

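1 value stood out among cells that the comparisons do not use. A full-length MZoep cell of p1 that was left out, with 788 genes at 1 FPKM or more, had 84.61 FPKM of TDRD7A. The highest kept wild-type cell had 32.55 FPKM, and the 5 wild-type cells left out were all at 0. Kept MZoep cells other than the 2 NANOS3-high cells reached 232.4 and 101.5 FPKM, in S12 and S52, which also had few genes for kept cells. With so few genes, the value of the left-out cell is not comparable with those of kept cells. The other 5 list genes were at 0 in the left-out cell and in all other cells left out.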

How the results depend on the processing

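Of the 6 genes, 3 were at least 2-fold higher in MZoep. This count was 1 with a pseudocount of 10 FPKM, 1 with the mean of log2 values and 1 without the 2 NANOS3-high MZoep cells, the last an alternative chosen after seeing the data, and NANOS3 was the gene that remained. Under the 12 other alternatives it lay between 2 and 4, and no gene was at least 2-fold lower under any of the 15. The ratio of NANOS3 ran from 1.19 (mean of log2 values) to 4.19 (without p3), and that of DND1 from 0.24 to 2.38. The median of the 6 genes ran from 0.31 to 1.29 and was 0.37 without p2. The cause of the change with the pseudocount was not tested. Without p2 the 2 highest cells held 16.8% of NANOS3 and 13.2% of DND1, against 80.5% and 75.1% with it. Detection at 10 FPKM gave 22.9% of MZoep and 4.26% of wild-type cells for NANOS3. All 4 library batches hold both genotypes, and their ratios are given by batch; cells carry no number that pairs them. The number of wild-type cells limits any statement on rare cells.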

Other observations

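A few genes off the germ plasm list stood near the list genes in the NANOS3-high cells. They were named for their ranks after values were seen. PIK3R3B, which encodes a regulatory subunit of phosphoinositide 3-kinase, was at 82.72 and 75.04 FPKM in S21 and S81, above all other MZoep cells (at most 42.23 FPKM), and had 16 and 13 UMIs in S24 and S53 (at most 11 in others), although S53 had rank 4 by CPM. KPNA7, an importin alpha gene, had 10 and 16 UMIs in S24 and S53 (at most 8 in others) and 72.96 and 70.10 FPKM in S21 and S81 (at most 86.22 FPKM in others). The claudin gene CLDNG had 44 and 29 UMIs in S24 and S53 (at most 23 in others) and 93.34 and 107.8 FPKM in S21 and S81, where another MZoep cell reached 198.5 FPKM.

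Of the list of maternal oocyte transcripts, which holds BUC as well, 2 of 12 genes (ORG and BUC) were above the 90th percentile of the other MZoep cells in both full-length NANOS3-high cells, against 3.46% of all genes. In the 5-prime cells it was 2 of 11 (BTG4 and BUC), against 3.82% of all genes. ORG had 137.9 and 151.9 FPKM in S21 and S81 (ranks 10 and 7) and 37 and 15 UMIs in S24 and S53 (ranks 1 and 22 by CPM). BTG4, a gene of maternal transcript clearance, had 26.49 and 82.52 FPKM in S21 and S81 (ranks 48 and 3) and 17 and 16 UMIs in S24 and S53 (ranks 3 and 8 of 86 by CPM). Of the 12 genes, 2 were at 0 in S21 and none in S81.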
